A study of Mus musculus with 6 samples.

Results

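The DNA damage repair genes described here are 40 genes of homologous recombination, the Fanconi anaemia pathway, mismatch repair, end joining, excision repair and the damage checkpoint, chosen by symbol from the 22966 genes of a count table. All 40 were present in the table and passed the filter on low counts. The table holds RNA sequencing counts of primary mouse hepatic stellate cells, the retinoid-storing pericytes of the liver that turn into myofibroblasts after injury, in 3 libraries titled flox and 3 titled Cre. All 6 libraries carry the same genotype entry, BucheHep, and the same CCl4 treatment entry, CCl4 being a hepatotoxin used to cause liver fibrosis. Group membership therefore comes from the sample titles only. The study deals with hepatocyte loss of the enzyme butyrylcholinesterase and its bearing on stellate cell activation. The sources used here do not give the promoter that drives Cre, the age of the mice, the CCl4 dose or whether each library is its own animal. All p-values here therefore rest on the variation among these libraries, and that variation may be technical.

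DNA breaks and blocked replication forks are sensed by the kinases ATM and ATR, which signal through CHK2 and CHK1. Breaks are then either rejoined directly by end joining, at any time of the cell cycle, or copied from the sister chromatid by homologous recombination, which needs a replicated chromosome. Transcripts of many recombination and Fanconi genes are therefore low in resting cells and rise in S and G2 phase, while those of the end-joining, excision and sensor genes are present throughout. To follow this division, 19 of the 40 members were set apart as cell-cycle-linked from general knowledge, with earlier results of these data known, so the list is no independent evidence of its direction.

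Over all genes tested, flox 3 stood apart from its group. The chi-square per gene between its counts and those of the Cre libraries was 145.0 to 181.6, lower than the 239.8 and 333.6 that separated it from flox 1 and flox 2, while flox 1 and flox 2 differed by 33.5 and the Cre libraries among themselves by 46.3 to 99.4. Counts of called members are therefore given with and without flox 3.

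In the Cre libraries 18 of the 40 repair genes were higher than in flox and 0 were lower (edgeR quasi-likelihood test, Benjamini-Hochberg adjusted p below 0.05). These 18 are 45% of the members, where 6.35% of the 14795 genes tested were called higher and 8.94% lower. The median log2 fold change, Cre over flox, was 0.94 over the members and 0.01 over all genes tested. Of the members 34 had a positive and 6 a negative fold change, against 51% and 49% of all genes. At an unadjusted p below 0.05, 27 members were higher, against 16.4% of all genes, and 0 lower, against 18.4%. Each Cre library lay above each flox library for 26 members, against 19.6% of all genes, and below for 2, against 20% of all genes. In these bulk libraries more cells expressing a gene and more RNA per cell cannot be told apart. The cell-cycle-linked members carried most of the calls. Of these 19 genes, 15 were called higher, with a median log2 fold change of 1.61 and a range of 0.67 to 1.91. Of the other 21 members 3 were called, Atm, Xrcc5 and Trp53bp1, and their median was 0.18, from -0.33 to 1.19. Leaving out flox 1, flox 2, Cre 1 or Cre 2 ended every one of these calls, as it did for all genes in edgeR: 0 genes passed each time. At an unadjusted p below 0.05 those fits had 24, 22, 22 and 23 members higher, against 11.6%, 11.2%, 10.7% and 12.5% of all genes. At the adjusted threshold, 23 members were called higher without flox 3, against 16% of all genes, and 21 without Cre 3, against 5.04%. DESeq2 called 26 members higher, against 13.4% of all genes, and limma-voom 7, against 3.91%; those 7, Atm, Chek1, Xrcc5, Brca1, Msh6, Rad18 and Trp53bp1, were called by all 3 tools. All 18 called members kept a positive fold change under every alternative run.

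**Figure D1:**
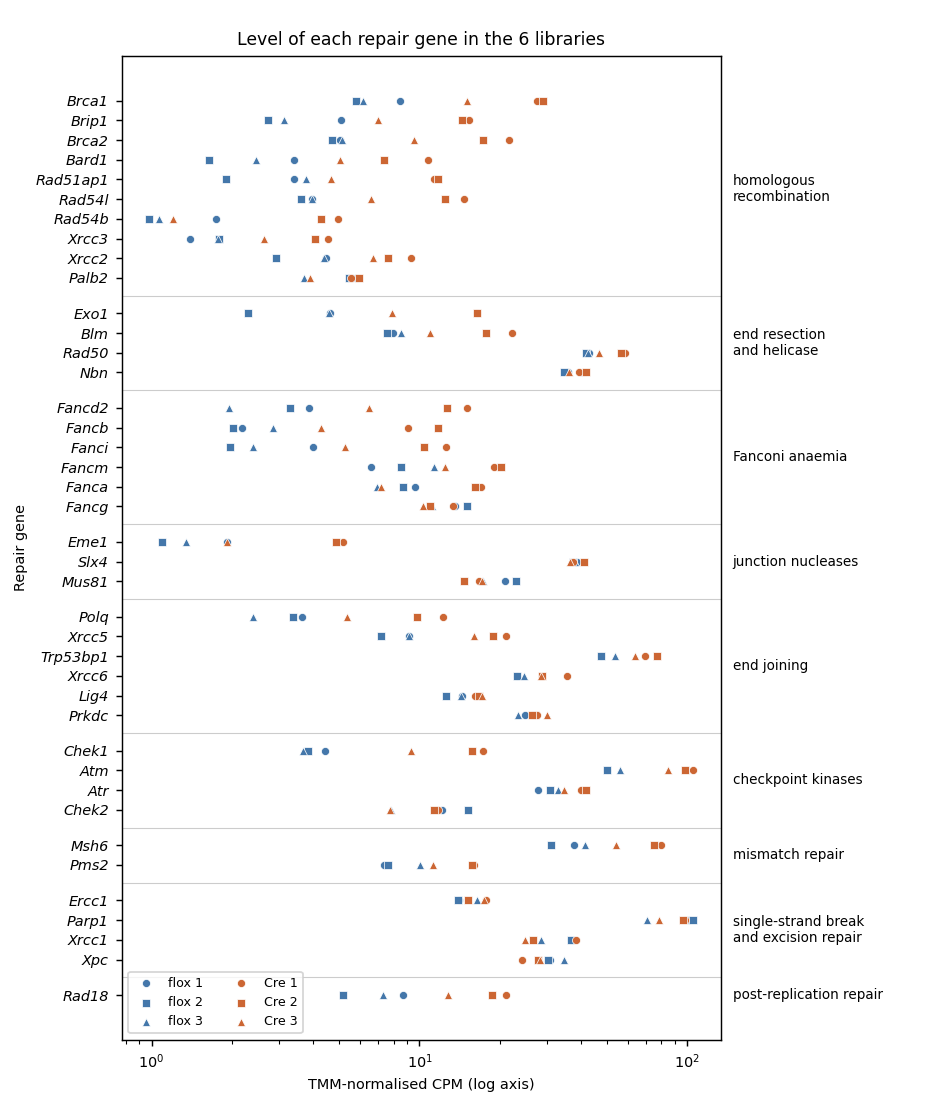
TMM-normalised CPM (log axis) of the 40 repair genes, grouped by role, with 1 point per library: blue for flox, orange for Cre, and circle, square and triangle for libraries 1, 2 and 3. For most recombination and Fanconi genes the 3 orange points lie to the right of the 3 blue points, with Cre 3 nearest to flox, while Parp1, Xrcc1 and Ercc1 overlap.

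The promoters of 4 genes are shown because these genes belong to the cell-cycle-linked members that moved together, and have the lowest p among those that hold one of the motifs searched. The motifs were the E2F core (TTCCCGC and its variant forms TTGGCGC, the form TTCGCGC and the form TTGCCGC), the CCAAT box bound by NF-Y, and the CHR element TTTGAA of cell cycle genes, each on both strands, in the 250 bases before a RefSeq start (GRCm38.p6). Capitals mark the matches. The Brca1 window is chr11:101551956-101552205 on the minus strand and the Rad54l window chr4:116123691-116123940 on the minus strand. The Rad54l window is for 1 of its 2 starts in the table, the start with the most motif matches being the one shown. The windows of Brca2, chr5:150522371-150522620, and Msh6, chr17:87974800-87975049, are on the plus strand.
Brca1: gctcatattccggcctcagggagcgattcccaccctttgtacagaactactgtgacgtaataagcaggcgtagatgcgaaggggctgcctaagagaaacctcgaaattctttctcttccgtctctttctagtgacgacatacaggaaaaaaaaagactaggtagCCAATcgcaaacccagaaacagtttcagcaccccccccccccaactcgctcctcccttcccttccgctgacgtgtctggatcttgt
Brca2: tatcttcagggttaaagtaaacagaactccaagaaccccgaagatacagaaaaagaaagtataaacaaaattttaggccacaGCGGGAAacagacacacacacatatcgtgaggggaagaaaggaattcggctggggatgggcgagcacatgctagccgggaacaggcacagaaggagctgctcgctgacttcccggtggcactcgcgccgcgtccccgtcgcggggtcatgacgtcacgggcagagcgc
Msh6: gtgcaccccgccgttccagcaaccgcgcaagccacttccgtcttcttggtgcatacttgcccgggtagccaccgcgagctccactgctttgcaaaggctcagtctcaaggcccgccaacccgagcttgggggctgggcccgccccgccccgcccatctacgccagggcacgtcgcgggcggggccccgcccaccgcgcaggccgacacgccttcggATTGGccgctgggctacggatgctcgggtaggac
Rad54l: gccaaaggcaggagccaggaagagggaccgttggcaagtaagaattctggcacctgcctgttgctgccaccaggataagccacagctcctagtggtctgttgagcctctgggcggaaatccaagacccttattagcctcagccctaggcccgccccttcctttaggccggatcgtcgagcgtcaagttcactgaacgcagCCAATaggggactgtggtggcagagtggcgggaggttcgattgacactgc
The CCAAT box stood 86 to 82 bases before the start of Brca1, 50 to 46 before that of Rad54l and, on the opposite strand, 34 to 30 before that of Msh6. The E2F core TTCCCGC stood on the opposite strand 168 to 162 bases before the start of Brca2. The promoter table held 32 of the 40 members. An E2F core was present in 10 of them, 31.2%, against 9.01% of all 27025 genes of the table, a CCAAT box in 16, 50%, against 37.5%, and a CHR element in 2, 6.25%, against 18.3%. The cell-cycle-linked members did not hold more of the E2F core than the others. It was present in 4 of 15 of them and in 6 of 17 of the other members, the CCAAT box in 8 of 15 and 8 of 17, and the CHR element in 2 of 15 and 0 of 17. The table of all genes includes noncoding genes, and a match is a description of these letters only.

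Homologous recombination genes formed the group with the most calls: 6 of 10 were higher in Cre, against 6.35% of all genes tested. The group median was 1.58 on the log2 scale. Brca1, whose product recruits the recombination machinery to breaks (chromosome 11, 101488764 to 101551955 in GRCm38), stood at 8.46, 5.81 and 6.14 TMM-normalised CPM, a count scaled to a common library size, in flox 1, 2 and 3 and at 27.6, 28.8 and 14.99 CPM in Cre 1, 2 and 3. The lowest Cre library was thus above the highest flox library, and the log2 fold change was 1.81 with a standard error of 0.30 over 3 libraries a group (edgeR adjusted p = 0.0241, errors of fold changes being given this way throughout). Brca2, a tumour suppressor needed for recombination at breaks (chromosome 5, 150522630 to 150570329), was even across flox at 5.04, 4.71 and 5.15 CPM and reached 21.5, 17.3 and 9.54 CPM in Cre. It rose by 1.70 ± 0.31 on the log2 scale (edgeR adjusted p = 0.0250). Bard1, the obligate partner of BRCA1, stood at 3.39, 1.64 and 2.46 CPM in flox, against 10.8, 7.36 and 5.06 CPM in Cre (log2 fold change 1.63 ± 0.39, edgeR adjusted p = 0.0409). The BRCA1-associated helicase gene Brip1 had 5.09, 2.73 and 3.11 CPM in flox, against 15.3, 14.4 and 6.996 CPM in Cre, and rose by 1.75 ± 0.39 on the log2 scale. Flox 1 was the highest flox library for all of Brca1, Bard1 and Brip1, and still lay below Cre 3.

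Rad54l encodes a motor protein that acts during strand invasion. It stood at 3.97, 3.62 and 3.96 CPM in flox, against 14.6, 12.5 and 6.60 CPM in Cre (log2 fold change 1.55 ± 0.32, edgeR adjusted p = 0.0292). Xrcc2, another recombination gene, rose from 3.92 ± 0.884 to 7.88 ± 1.31 CPM (SD, n = 3), with an edgeR adjusted p of 0.0472 that rose to 0.168 without Cre 1. Xrcc3, whose product also serves recombination, had 1.65 ± 0.221 CPM in flox, against 3.75 ± 1.01 CPM in Cre and lay just beyond the threshold (edgeR adjusted p = 0.0534). So did Rad51ap1, a further recombination gene, at 3.41, 1.90 and 3.78 CPM in flox, against 11.4, 11.7 and 4.67 CPM in Cre (log2 fold change 1.61 ± 0.44, edgeR adjusted p = 0.0535). Cre 1 and Cre 2 carried that difference, since Cre 3 was within 1 CPM of flox 3. Rad54b, a relative of Rad54l, was the least abundant member, with 1.73, 0.977 and 1.07 CPM in flox, against 4.96, 4.30 and 1.20 CPM in Cre, so Cre 3 lay within the flox range (1.46 ± 0.58, edgeR adjusted p = 0.125). Palb2, which links BRCA1 to BRCA2, had 4.98 ± 1.12 CPM in flox, against 5.14 ± 1.10 CPM in Cre (log2 fold change 0.04 ± 0.28, edgeR adjusted p = 0.929). In Palb2 flox 3 and Cre 3 were both lower than the other libraries of their group.

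Among the genes that trim break ends or unwind DNA, 2 of 4 were called higher, against 6.35% of all genes tested. Exo1, an exonuclease that extends resection and also serves mismatch repair, stood at 4.65, 2.30 and 4.60 CPM in flox, against 16.4, 16.5 and 7.92 CPM in Cre (log2 fold change 1.82 ± 0.40, edgeR adjusted p = 0.0335). Blm, the helicase that dissolves crossed-over junctions, rose from 8.03 ± 0.461 to 16.9 ± 5.62 CPM (1.08 ± 0.27, edgeR adjusted p = 0.0429). The 2 subunits of the break-sensing complex measured here, Rad50 and Nbn, did not pass the test. Rad50 had 42.3 ± 0.567 CPM in flox, against 53.8 ± 6.32 CPM in Cre (0.35 ± 0.12, edgeR adjusted p = 0.0882), and Nbn 37.1 ± 3.23 and 39.0 ± 2.82 CPM (0.07 ± 0.12, edgeR adjusted p = 0.693).

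In the Fanconi anaemia pathway, which unhooks crosslinks between DNA strands, 3 of 6 genes were called higher, against 6.35% of all genes tested. The 3 were both subunits of the clamp that the pathway ubiquitinates, Fancd2 and Fanci, and Fancb, a core complex subunit carried on chromosome X. Fancd2 (chromosome 6, 113531682 to 113597017) had the steepest rise of all 40 members, from 3.86, 3.28 and 1.94 CPM in flox to 15.04, 12.7 and 6.46 CPM in Cre (log2 fold change 1.91 ± 0.40, edgeR adjusted p = 0.0311). Fanci stood at 4.02, 1.95 and 2.39 CPM in flox, against 12.6, 10.4 and 5.26 CPM in Cre (1.75 ± 0.42, edgeR adjusted p = 0.0410). Fancb stood at 2.18, 2.01 and 2.84 CPM in flox, against 9.09, 11.8 and 4.28 CPM in Cre (1.84 ± 0.40, edgeR adjusted p = 0.0336). The translocase gene Fancm was at 8.81 ± 2.40 CPM in flox, against 17.2 ± 4.10 CPM in Cre without passing (edgeR adjusted p = 0.0595). The core complex genes Fanca and Fancg did not pass either. Fanca, at 8.42 ± 1.35 and 13.4 ± 5.39 CPM, was high in Cre 1 and Cre 2 and at the flox level in Cre 3, while Fancg was at 13.3 ± 1.95 CPM in flox, against 11.5 ± 1.58 CPM in Cre.

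The nucleases that cut joined DNA molecules gave 0 calls among 3 genes, where 6.35% of all genes tested were called higher and 8.94% lower. The 3 genes gave 3 different pictures. Eme1, the regulatory partner of MUS81, stood at 1.92, 1.09 and 1.34 CPM in flox, against 5.18, 4.88 and 1.91 CPM in Cre, so Cre 3 overlapped flox 1 (1.46 ± 0.47, edgeR adjusted p = 0.0784). The catalytic subunit gene Mus81 was at 20.3 ± 2.88 CPM in flox, against 16.2 ± 1.31 CPM in Cre, with each Cre library below each flox library (-0.33 ± 0.16, edgeR adjusted p = 0.184). The scaffold gene Slx4 stayed between 36.5 and 41.2 CPM in all 6 libraries (0.01 ± 0.10, edgeR adjusted p = 0.957).

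End joining was divided. Xrcc5, which encodes the KU80 subunit of the ring that grips broken ends (chromosome 1, 72307421 to 72394952), stood at 9.14, 7.19 and 9.10 CPM in flox, against 20.9, 18.8 and 15.97 CPM in Cre. The groups lay far apart relative to their spread, and the log2 fold change was 1.13 ± 0.18 (edgeR adjusted p = 0.0237). Xrcc6, which encodes the KU70 subunit, had 23.6 ± 0.860 CPM in flox, against 30.9 ± 4.02 CPM in Cre (log2 fold change 0.39 ± 0.13 that did not pass (edgeR adjusted p = 0.0911). Trp53bp1, whose product shields ends from resection, rose by 0.49 ± 0.11 on the log2 scale, from 47.6, 47.7 and 53.9 CPM to 69.5, 76.8 and 63.7 CPM (edgeR adjusted p = 0.0367). Polq, the polymerase of the mutagenic backup route that works in dividing cells, rose from 3.65, 3.36 and 2.39 CPM to 12.2, 9.75 and 5.36 CPM (1.54 ± 0.36, edgeR adjusted p = 0.0377). The ligase gene Lig4 was at 13.7 ± 0.997 and 16.7 ± 0.502 CPM and Prkdc, the DNA-dependent protein kinase that KU recruits, at 25.1 ± 1.79 and 27.9 ± 1.82 CPM, with edgeR adjusted p of 0.181 and 0.386.

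Of the checkpoint kinases, Atm and Chek1 rose, and they had the lowest p of the 40 members. Atm (chromosome 9, 53439149 to 53536740) stood at 49.9, 50.3 and 56.1 CPM in flox, against 105, 98.2 and 84.7 CPM in Cre, and Cre 3 was closer to its group than for the recombination genes. Atm rose by 0.88 ± 0.12 on the log2 scale (edgeR adjusted p = 0.0237), between 0.83 and 1.04 under every alternative. Chek1, the kinase that restrains the cycle when forks stall (chromosome 9, 36708482 to 36727065), stood at 4.44, 3.85 and 3.68 CPM in flox, against 17.3, 15.7 and 9.29 CPM in Cre (log2 fold change 1.82 ± 0.27, edgeR adjusted p = 0.0237). Atr, the kinase upstream of CHK1, had 27.6, 30.6 and 32.9 CPM in flox, against 40.1, 41.7 and 34.5 CPM in Cre, with flox 3 and Cre 3 close together (0.35 ± 0.13, edgeR adjusted p = 0.101). Chek2, the target of ATM, was at 11.7 ± 3.70 CPM in flox, against 10.3 ± 2.15 CPM in Cre (-0.19 ± 0.29, edgeR adjusted p = 0.666).

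Msh6, the mismatch-recognition subunit (chromosome 17, 87975062 to 87990892), was the most abundant of the called members per length of transcript. It stood at 37.7, 30.9 and 41.5 CPM in flox, against 80.0, 75.1 and 54.1 CPM in Cre (0.93 ± 0.19, edgeR adjusted p = 0.0280). The endonuclease gene Pms2 was at 8.36 ± 1.47 and 14.3 ± 2.67 CPM and fell just short (edgeR adjusted p = 0.0559). Rad18, the ubiquitin ligase that lets translesion polymerases pass damaged bases, rose from 8.67, 5.202 and 7.31 CPM to 21.0, 18.6 and 12.8 CPM (1.31 ± 0.27, edgeR adjusted p = 0.0298).

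Single-strand break and excision repair, like the junction nucleases, gave no call, and its median was -0.11 on the log2 scale over 4 genes. Of all genes tested 6.35% were called higher and 8.94% lower, so no call among so few genes does not set the group apart. Parp1, which marks nicks with poly(ADP-ribose), stood at 101, 105 and 70.5 CPM in flox, against 97.7, 96.2 and 78.5 CPM in Cre, with library 3 lowest in both groups (-0.02 ± 0.18, edgeR adjusted p = 0.942, and 0.15 when scaled to library totals). The damage sensor gene Xpc had 30.6, 30.2 and 34.7 CPM in flox, against 24.2, 27.6 and 28.3 CPM in Cre, each Cre library being lower, without passing (-0.26 ± 0.12, edgeR adjusted p = 0.188). The scaffold gene Xrcc1 was at 34.01 ± 4.83 and 29.8 ± 7.35 CPM and the nuclease subunit gene Ercc1 at 14.8 ± 1.41 and 16.8 ± 1.43 CPM, with edgeR adjusted p of 0.542 and 0.401.

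**Figure D2:**
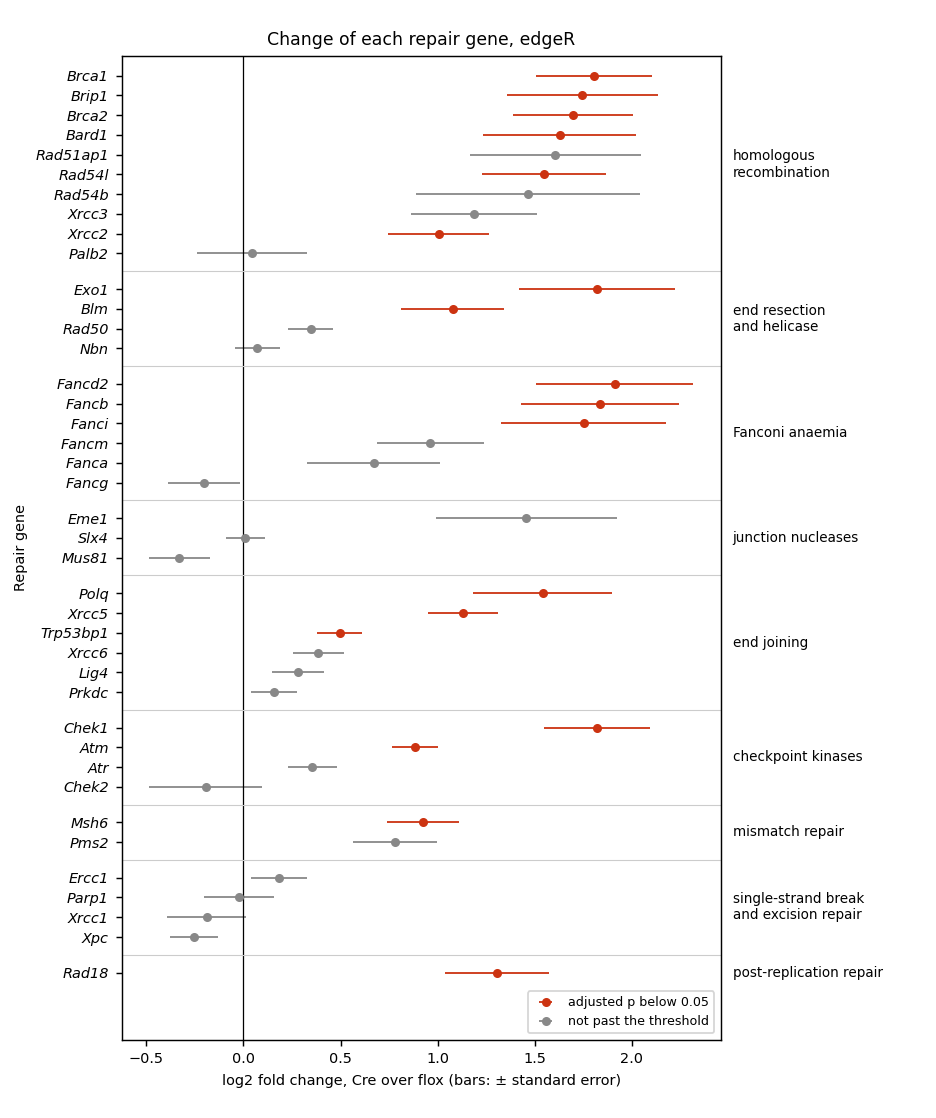
Log2 fold change, Cre over flox, of the 40 repair genes grouped by role, with the standard error from edgeR as bars (n = 3 per group). The 18 genes past the adjusted p threshold are red and all lie to the right of 0, while the excision repair genes, Slx4, Nbn, Palb2 and Chek2 lie about 0.

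Some members have exons that overlap another gene in GENCODE M21, and the sources used here do not give whether counting used strand, so their reads cannot be told apart from that gene's. The overlap covers 35.8% of the exonic bases of Rad54b, with Fsbp on the same strand. On the opposite strand it covers 15.95% of Fanci with Polg, 15.4% of Rad54l with Lrrc41, 15.04% of Trp53bp1 with Tubgcp4 and 10.5% of Fanca with Zfp276. In the others, each overlapping gene that encodes a protein covers at most 8.001%. Eme1 overlaps both Lrrc59 (8.001%) and Mrpl27 (2.715%). Brca1, Bard1, Brip1, Exo1, Blm, Fancb, Xrcc5, Atm, Chek1, Rad18 and Polq had no exon overlap with another annotated gene.

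Levels between genes are compared per length, as FPKM, which carry no correction for composition. In flox the cell-cycle-linked members had a median of 0.649 FPKM and the other members one of 3.97 FPKM, and in Cre the medians were 2.18 and 5.41 FPKM. Parp1 was the most abundant member in both groups, at 23.7 ± 3.72 FPKM in flox and 26.3 ± 3.46 FPKM in Cre. It was followed in flox by Ercc1 (9.56 ± 1.48 FPKM), Xpc (8.32 ± 1.13), Mus81 (8.28 ± 0.731), Msh6 (8.20 ± 1.63), Xrcc1 (7.89 ± 0.731) and Rad50 (7.78 ± 0.488), which are neighbours that do not differ beyond their SD. The lowest were Brca2 (0.393 ± 0.039 FPKM), Polq (0.275 ± 0.046) and Rad54b (0.165 ± 0.052). In the order of levels, Atm moved from place 11 of 40 in flox to 5 in Cre, with 4.04 ± 0.504 and 8.29 ± 1.03 FPKM. Brca1 moved from 27 to 19, with 0.919 ± 0.188 and 3.60 ± 1.19 FPKM, and Palb2 from 22 to 37, with 1.19 ± 0.214 and 1.38 ± 0.309 FPKM.

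**Figure D3:**
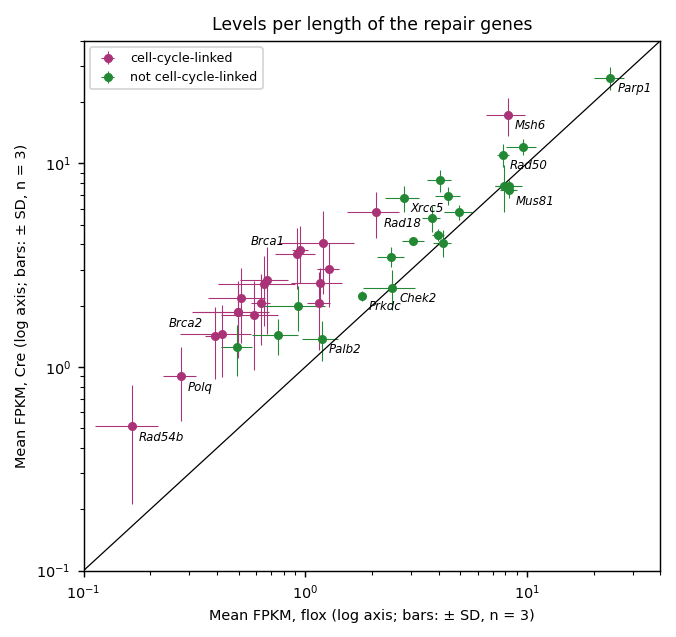
Mean FPKM of each repair gene in flox (x, log axis) and in Cre (y, log axis), with bars for the SD over 3 libraries and a line where both are equal. The cell-cycle-linked members (purple) are mostly low and lie above the line, while Parp1, at 23.7 FPKM in flox and 26.3 FPKM in Cre, lies near it.

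A set of 7 pairs of members whose products work together was compared as count ratios within each library, which no scaling between libraries can change. The pairs were chosen after the values were seen. The exact permutation test (two-sided, over the libraries) cannot go below p = 0.10 with 3 against 3, or 0.14 when adjusted over 7 pairs, so none of the differences can pass. The ratio of Xrcc5 to Xrcc6 counts was 0.395, 0.311 and 0.370 in flox and 0.590, 0.654 and 0.562 in Cre (exact permutation p = 0.10). Every Cre library was thus higher, by a mean of 0.75 on the log2 scale. Chek1 to Atr gave 0.161, 0.126 and 0.112 in flox and 0.430, 0.377 and 0.269 in Cre. Atm to Chek2 gave 4.12, 3.30 and 7.14 in flox and 9.02, 8.70 and 10.9 in Cre, and Eme1 to Mus81 0.0922, 0.0476 and 0.0778 in flox and 0.309, 0.332 and 0.112 in Cre. Rad50 to Nbn was higher in Cre too, by 0.27 on the log2 scale. These 4 pairs had the same exact permutation p of 0.10. The 2 pairs in which both genes were called higher kept overlapping ratios. Brca1 to Bard1 gave 2.496, 3.54 and 2.495 in flox and 2.56, 3.91 and 2.96 in Cre (exact permutation p = 0.50). Fancd2 to Fanci gave 0.961, 1.68 and 0.813 in flox and 1.20, 1.22 and 1.23 in Cre (exact permutation p = 0.70).

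**Figure D4:**
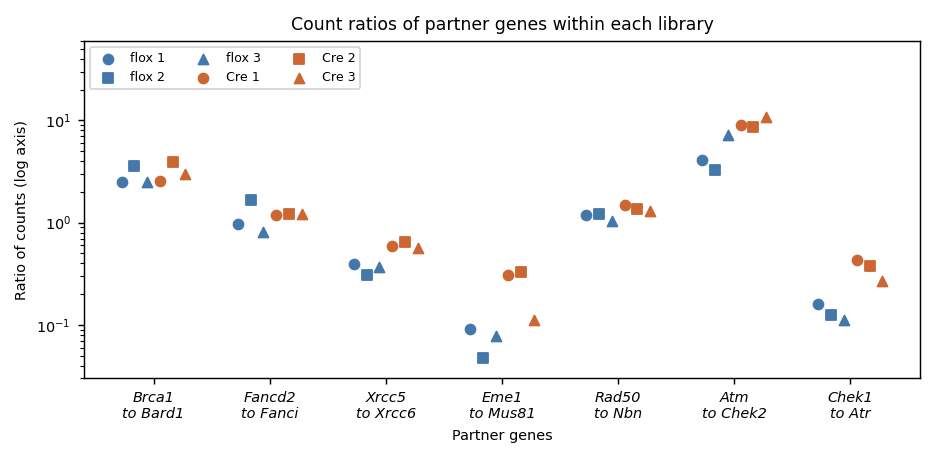
Ratio of the counts of 2 partner genes (log axis) in each library, blue for flox and orange for Cre, with circle, square and triangle for libraries 1, 2 and 3. The ratios of Xrcc5 to Xrcc6, Eme1 to Mus81, Rad50 to Nbn, Atm to Chek2 and Chek1 to Atr do not overlap between groups, while those of Brca1 to Bard1 and Fancd2 to Fanci do.

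For the repair genes, Cre 3 was the lowest Cre library for all 18 called members and for all 19 cell-cycle-linked members, and for 17 of the 22 members not called. The called and the cell-cycle-linked members are largely the same genes, and the same count was not made over all genes tested. Relative to the flox mean, the called members stood at a median of 3.89-fold in Cre 1, 3.18-fold in Cre 2 and 1.86-fold in Cre 3. Among the flox libraries, flox 2 was the lowest for 13 of the 18 called members and flox 1 the highest for 12.

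Most proliferation markers were higher in Cre too. Of 28 genes of replication and mitosis, 26 were called higher and 0 lower, against 6.35% and 8.94% of all genes tested. The median log2 fold change of the 28 was 1.60, next to 1.61 for the cell-cycle-linked members. Mki67 rose from 37.2 ± 8.85 to 118.5 ± 43.7 CPM and Top2a from 37.5 ± 10.3 to 145.4 ± 60.9 CPM (SD, n = 3, edgeR adjusted p = 0.0267 and 0.0260). Pcna, which also serves repair synthesis, was at 135.2 ± 12.7 and 173.1 ± 20.4 CPM (edgeR adjusted p = 0.105). The summed level of the proliferation list was 837, 650.0 and 704 CPM in flox, against 1995, 1800 and 1176 CPM in Cre, again lowest in Cre 3 within its group. The mean log2 CPM of the cell-cycle-linked members minus that of the proliferation list was -1.87, -1.91 and -1.72 in flox. In Cre it was -1.78, -1.83 and -1.89, so the groups overlapped. Both lists were chosen with earlier results of these data known, so their shared direction is no independent evidence. The part of proliferation in the change of the repair genes was not tested.

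The other genes of DNA repair, a list of 95 tested genes outside the 40, had 13 members higher and 1 lower. Over all genes tested, 6.35% were called higher and 8.94% lower. The median log2 fold change was 0.14 over the list and 0.01 over all genes tested. Those of lowest p were the replicative ligase gene Lig1 (1.09 ± 0.16), the fork-checkpoint adaptor genes Clspn (1.995 ± 0.34), Topbp1 (1.01 ± 0.18) and Tipin (1.06 ± 0.19), and Rif1 (0.90 ± 0.16), a partner of 53BP1 in end protection. Their edgeR adjusted p ran from 0.0237 to 0.0250. The one that fell was Dclre1c, which encodes the end-joining nuclease Artemis, from 49.9, 69.2 and 36.8 CPM in flox to 23.3, 20.5 and 24.0 CPM in Cre (-1.20 ± 0.23, edgeR adjusted p = 0.0267). Exons of Lig1 overlap those of Zswim9 and exons of Dclre1c those of Suv39h2.

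Cell type markers differed between the groups as well. A change in cell numbers and a change in RNA per cell cannot be told apart here either. The shares called over all genes tested were 6.35% higher and 8.94% lower. Of 17 macrophage markers 16 were lower in Cre and 0 higher, with a median log2 fold change of -2.98 and a summed level of 8717 to 24279 CPM in flox, against 2734 to 3333 CPM in Cre. Dclre1c followed their order within flox, highest in flox 2 and lowest in flox 3. Of 15 stellate markers 3 were called higher, Dcn, Pdgfra and Hand2, and 0 lower. Fold changes were positive for 11 and negative for 4, Lrat, Des, Ngfr and Col3a1, with a median of 0.54 on the log2 scale. The summed level of the 15 was 1214 to 3063 CPM in flox, against 2313 to 3602 CPM in Cre. In CPM, which are not scaled to length, it was below that of the macrophage markers in every flox library and in Cre 1. In Cre 2 and Cre 3 it was above. All 15 stellate markers were detected, the quiescence marker Lrat at no more than 2.49 CPM. Mesothelial markers had 0 of 8 past the test, with a summed level of 261, 176 and 237 CPM across flox. The sum reached 706 and 824 CPM for Cre 1 and Cre 2 but 202 CPM for Cre 3, the library in which the repair genes were lowest within Cre. Hepatocyte markers had 0 of 9 past the test (52.3 to 600.3 CPM over the 6 libraries), lymphocyte markers 0 of 9 (4.71 to 24.4 CPM), cholangiocyte markers 0 of 5 (45.7 to 71.1 CPM), endothelial markers 1 of 9, lower (1216 to 3697 CPM), and neutrophil markers 1 of 2, lower (15.2 to 141.8 CPM), with Ly6g at 0 in all libraries. The part of these differences in the repair genes was not tested.

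**Figure D5:**
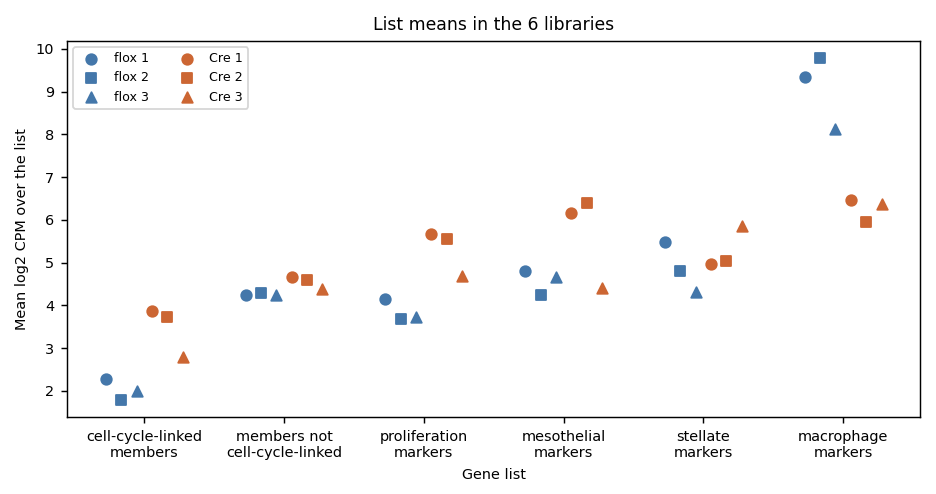
Mean log2 CPM of 6 gene lists in each library, blue for flox and orange for Cre, with circle, square and triangle for libraries 1, 2 and 3. The cell-cycle-linked repair genes and the proliferation markers share one pattern, with Cre 1 and Cre 2 highest, Cre 3 next and flox lowest, while macrophage markers are highest in flox.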

How the data were processed

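The table deposited by the authors holds raw counts per gene symbol, and a second deposited table holds FPKM. In 11560 genes, those above 50 counts throughout, FPKM matched counts scaled by library total and a fixed gene length to within 2.97e-08 on the log2 scale. Builds named without a role in the submitters' processing notes are GRCm38, mm10 and hg38; the aligner, counter and strand setting were not given in the sources used here. Per the labels' protocols, libraries were made from total RNA with a SMARTER kit. All 6 columns of both tables were used, leaving 0 unused, and 0 rows lacked a gene name. Libraries held 37273142 to 41006722 counts, and the members 34 (Rad54b) to 4210 (Atm) counts in a library. No 2 libraries agreed within sampling noise (lowest chi-square per gene 33.5).

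The main test was that of edgeR 4.0.16, run under R 4.3.3 (filterByExpr, minimum count 10 and total 15, leaving 14795 genes; TMM; quasi-likelihood F-test, two-sided, no covariate; Benjamini-Hochberg, calls below 0.05). Standard errors were taken as the size of the log2 fold change over the square root of F. DESeq2 1.42.0, limma 3.58.1 (voom, and trend on log2 FPKM with a pseudocount of 1 or 0.1), other scalings, filters, thresholds, a replicate block and each library left out were alternatives. The tests were also run on simulated counts, drawn independently for each gene and library. No library was set apart and no list of cell type markers was shifted as a group in them, so they do not bear on those features of these data. The members and all lists were chosen with earlier results of these data known, and the partner pairs after their values were seen. Values in every library are given for the 16 called members of lowest p, the 3 steepest not called, the lowest p of each role group and 7 genes chosen by name; other members are summarised. Positions are from GENCODE M21.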

Additional observations from a re-analysis of the deposited data

How the results depend on the processing

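No member was called lower under any alternative, while the number called higher depended on the test and on single libraries. An adjusted p below 0.01, the replicate block and leaving out flox 1, flox 2, Cre 1 or Cre 2 called no gene in either direction. Those settings therefore could not show a member lower. Of all genes, 8.94% were called lower in the main test, 15.9% in DESeq2 and 5.58% in limma-voom. Over all genes, 940 were called higher and 1323 lower. DESeq2 gave 1976 and 2358, limma-voom 578 and 826 (7 members), and an adjusted p below 0.1 gave 1826 and 2160. An adjusted p below 0.01 left 0 genes and 0 members. Library totals, which shift the median of all genes from 0.01 to 0.17, gave 1415 higher and 1066 lower, 57.0% higher against 41.5%, and FPKM gave 57.7% to 59.6%. With 1 library left out, calls ran from 0 to 2447 higher, 0 to 2882 lower and 0 to 23 members, and were 0 without flox 1, flox 2, Cre 1 or Cre 2. Without Cre 3 56.3% of the calls were higher. With the replicate block edgeR called 0 genes and 0 members, with 2098 genes and 25 members higher at an unadjusted p below 0.05. Libraries of the same number did not deviate together (r of -0.105 to -0.0328 over 3 pairs), so the numbers were not taken as a pairing. The members' median fold change ran from 0.55 on FPKM of at least 1 to 1.11 without Cre 3. The 0.55 covers only the 35 members with a mean FPKM of at least 1, on a scale that understates low genes. Over all 40 members that scale gave 0.57. Of the 40 members 4 changed sign, none of them called. With 1 library left out, Palb2 ran from -0.13 (without flox 3) to 0.23, Slx4 from -0.019 (without Cre 2) to 0.065, Chek2 from -0.41 to 0.055 (without flox 2) and Parp1 from -0.18 to 0.10; Palb2 was also negative without Cre 2 (-0.05) and Parp1 positive without flox 1 (0.06). Parp1 was 0.15 with library totals, 0.0052 without a count filter and 0.14 to 0.15 on FPKM. The cause was not tested. Rad54b and Eme1 had the widest standard errors of the members, 0.58 and 0.47; without Cre 3 these were 0.37 and 0.34, and both passed (edgeR adjusted p = 0.0420 and 0.0409).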
